A study of Mus musculus with 2 samples.

Results

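The epithelial-mesenchymal transition factors described here are 8 genes, namely the transcription factors Snai1, Snai2, Twist1, Twist2, Zeb1 and Zeb2 and the mesenchymal structural genes Cdh2 and Vim. They were taken by name from 27669 genes with a usable probe on the array, with Zeb1 listed there as Zfhx1a and Zeb2 as Zfhx1b and D130016B08Rik. The samples were subcutaneous tumours of Panc02, a mouse pancreatic carcinoma line, from C57BL/6 mice that entered an enriched environment (housing with more stimulation) or a standard environment at 3 weeks of age. All mice of both groups received the Panc02 cells and were housed for 5 more weeks. Tumour RNA of 6 mice was combined into an enriched and a standard environment pool, and a single one-colour array was run per pool, so the 2 arrays hold no spread between mice and allow no test between the housings.

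Epithelial-mesenchymal transition is the programme by which epithelial cells loosen their junctions and take on the shape and motility of mesenchymal cells. Its core factors are DNA-binding repressors of the Snail and Zeb zinc finger families and the Twist basic helix-loop-helix family, which bind E-box sequences, among them those in the promoter of the E-cadherin gene Cdh1. The usual readout is loss of E-cadherin with gain of N-cadherin and vimentin. The same factors are also active in fibroblasts and other stromal cells, and these arrays measured whole tumours. In such bulk RNA, more cells of a type and more RNA per cell cannot be told apart.

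Levels below are log2 processed intensities after subtraction of the 75th percentile of the same array, and a difference is the enriched minus the standard level. Levels of different probes are not comparable with each other. Each difference is given with an error propagated from the scanner software's own estimate for the spots, which had a median of 0.21 over measured probes and covers neither labelling nor mice. The 8 genes had 15 probes with 1 spot each, and 13 of these were well above background on both arrays, leaving at least 1 measured probe for all 8 genes. The 2 probes below background on both arrays belong to Cdh2.

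The factors differed between the pools in both directions. Twist2, Twist1 and Snai2 were at least 2-fold higher in the enriched environment pool, Zeb1 was at least 2-fold lower, and Snai1 and Zeb2 stayed within 2-fold. Thus 3 of the 8 genes were at least 2-fold higher, where 5.75% of the 20065 measured genes were, and 1 of the 8 was at least 2-fold lower, where 9.57% were. By probe, 3 of 13 were beyond 2-fold upwards (5.55% of all 30298 measured probes) and 1 downwards (8.88%). By any amount, 6 of the 8 genes were higher (51.9% of all) and 2 were lower (48.1%). The median difference of the 8 genes was 0.45, and that of all measured genes was 0.03. These shares and this median of all measured genes also stand beside the counts of the gene lists below. With the brightest probe per gene, or with RefSeq mRNA probes alone, the median of the 8 was 0.26. Vim was then at -0.04 and Zeb2 at -0.06 and -0.05, so neither was among the higher genes. Zeb2 was also below 0 with lowess scaling, at -0.08.

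**Figure D1:**
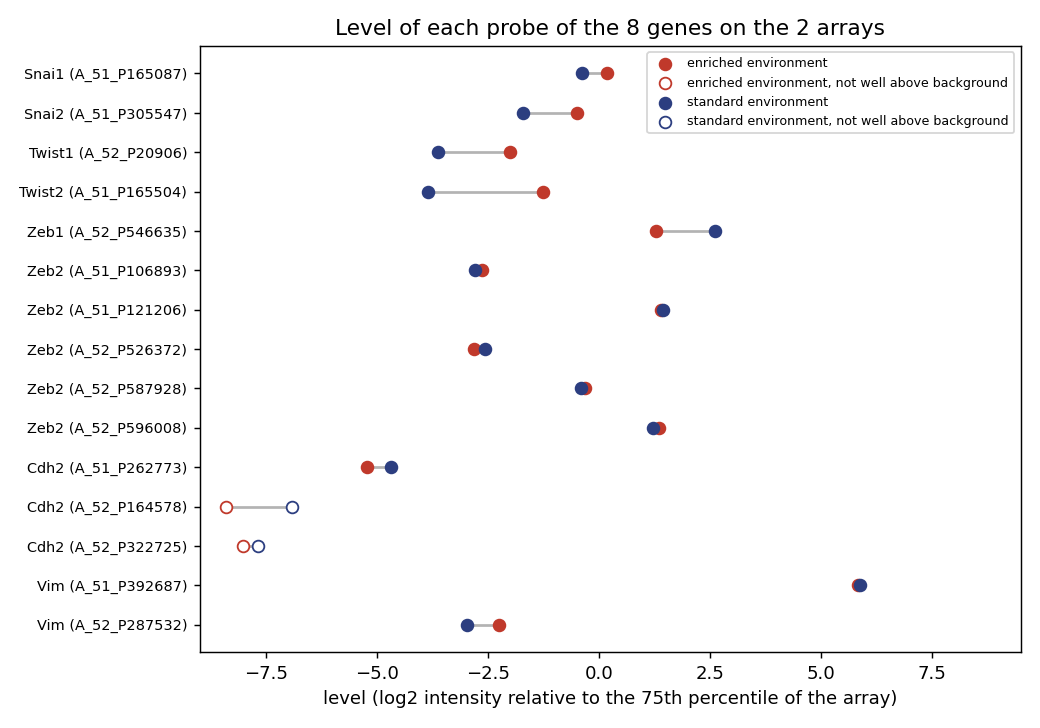
Level of each probe of the 8 genes (log2 intensity after subtraction of the array's 75th percentile) in the enriched and the standard environment pool (1 array each). Lines join the 2 arrays for 1 probe, and open circles mark the 2 Cdh2 probes that were not well above background. The widest gap among filled points is that of Twist2, with -1.27 in the enriched and -3.86 in the standard environment pool.

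Twist2, also known as Dermo1, is a basic helix-loop-helix repressor of mesenchyme and dermis. Its probe read an intensity of 407.8 in the enriched and 51.9 in the standard environment pool. This is a level of -1.27 in the enriched environment pool and -3.86 in the standard environment pool, a difference of 2.59 ± 0.22 or 6.01-fold. Of all measured genes, 99.5% had a lower difference. The probe is at chr1:91755751-91755809 on mm7, the build of the array design.

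Twist1, its close relative, was first known from mesoderm formation and is required for cranial mesenchyme in mice. Its probe read 244.7 in the enriched and 61.3 in the standard environment pool, so both Twist genes were dim in the standard environment pool. It had a level of -2.01 in the enriched and -3.62 in the standard environment pool, a difference of 1.61 ± 0.22 or 3.05-fold, with 97.8% of measured genes below it. Both Twist genes were therefore higher in the same pool, each on a single probe. Their size depended on the processing of dim signal. Normexp background correction of the raw spot means, with an offset of 50 added to every spot, gave 1.61 for Twist2 and 1.01 for Twist1. Both were still at least 2-fold. That offset is close to the intensities of both probes in the standard environment pool, and its part was not separated from that of the background estimate. The Twist1 probe is at chr12:31805579-31805638 on mm7.

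Snai2, known as Slug, is a Snail family repressor of neural crest and basal epithelium. It had a level of -0.49 in the enriched and -1.72 in the standard environment pool, a difference of 1.24 ± 0.21 or 2.36-fold, with 96.2% of measured genes below it. Snai1, known as Snail, represses Cdh1 and is needed for mouse gastrulation. It had a level of 0.18 in the enriched and -0.38 in the standard environment pool, a difference of 0.56 ± 0.20 or 1.47-fold, with 83.9% of measured genes below it. This is more than the spot error and less than 2-fold. It is about the size of the spread over all measured genes, an SD of 0.57 from the median absolute deviation. On mm7 the Snai2 probe is at chr16:14250104-14250163 and the Snai1 probe at chr2:167283227-167283286.

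The Zeb genes, which encode zinc finger homeobox repressors that share targets, did not differ alike. Zeb1 had a level of 1.28 in the enriched and 2.62 in the standard environment pool, a difference of -1.34 ± 0.20, or 2.54-fold lower in the enriched environment pool. Only 6.17% of measured genes had a lower difference. Its probe is at chr18:5978371-5978430 on mm7. Zeb1 was the only one of the 6 factors that was at least 2-fold lower.

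Zeb2, also called SIP1 and active in neural crest and myeloid cells, was measured by 5 probes, which gave a mean difference of 0.01 with an SD between probes of 0.16. The differences of the probes ran from -0.24 to 0.15. The probe of transcript variant 1 gave -2.81 in the enriched and -2.57 in the standard environment pool, a difference of -0.24 ± 0.21. The 2 probes of transcript variant 2 had levels of 1.39 and 1.34 in the enriched and 1.45 and 1.21 in the standard environment pool, with differences of -0.06 ± 0.20 and 0.14 ± 0.20. The probe on a testis clone had -0.31 in the enriched and -0.40 in the standard environment pool, and that of D130016B08Rik, a clone whose product the array design leaves unclassified, had -2.65 in the enriched and -2.79 in the standard environment pool. No difference of the 5 exceeded 0.24 in size, where the spot errors were 0.20 or 0.21. A further probe for a cDNA clone that its description assigns to this gene, but which is named by its accession alone and was not counted, differed by -0.24.

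**Figure D2:**
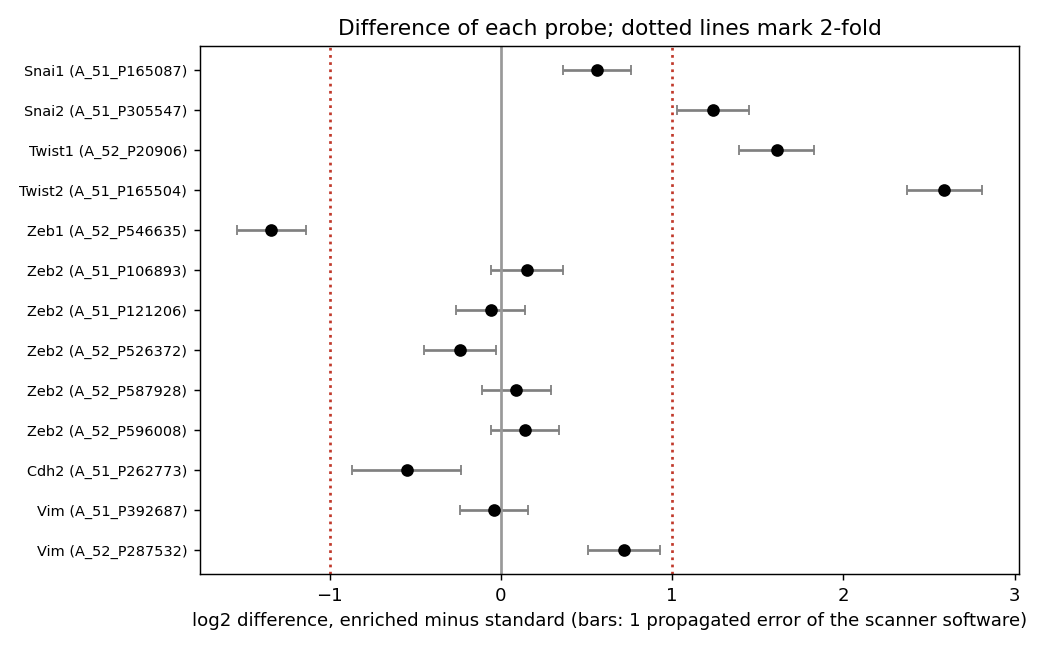
Log2 difference of the 13 measured probes, enriched minus standard. Points are single probes, bars are 1 error propagated from the scanner software's spot errors, and dotted lines mark 2-fold. Twist2, Twist1 and Snai2 lie above the upper line, Zeb1 lies below the lower line, and the 5 Zeb2 probes lie around 0.

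The structural genes gave smaller differences than the Twist genes. Cdh2 encodes N-cadherin, the cadherin of neural and mesenchymal cells that often replaces E-cadherin in the transition. Its measured probe, for the reference mRNA, had levels of -5.24 in the enriched and -4.69 in the standard environment pool, close to the lowest levels that were well above background (-6.21 and -5.68), and differed by -0.55 ± 0.32. The other 2 Cdh2 probes, both designed on cDNA clones, were not well above background in either pool, with levels of -8.41 and -8.02 in the enriched and -6.92 and -7.70 in the standard environment pool, and give no difference.

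Vim encodes vimentin, the intermediate filament of mesenchymal cells. Its 2 probes disagreed by more than their errors. The probe for the reference mRNA had levels of 5.84 in the enriched and 5.88 in the standard environment pool, a difference of -0.04 ± 0.20. The probe on a testis cDNA clone had levels of -2.26 in the enriched and -2.98 in the standard environment pool, a difference of 0.72 ± 0.21. On mm7 they are at chr2:13521763-13521822 and chr2:13516297-13516356, and their mean difference was 0.34.

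**Figure D3:**
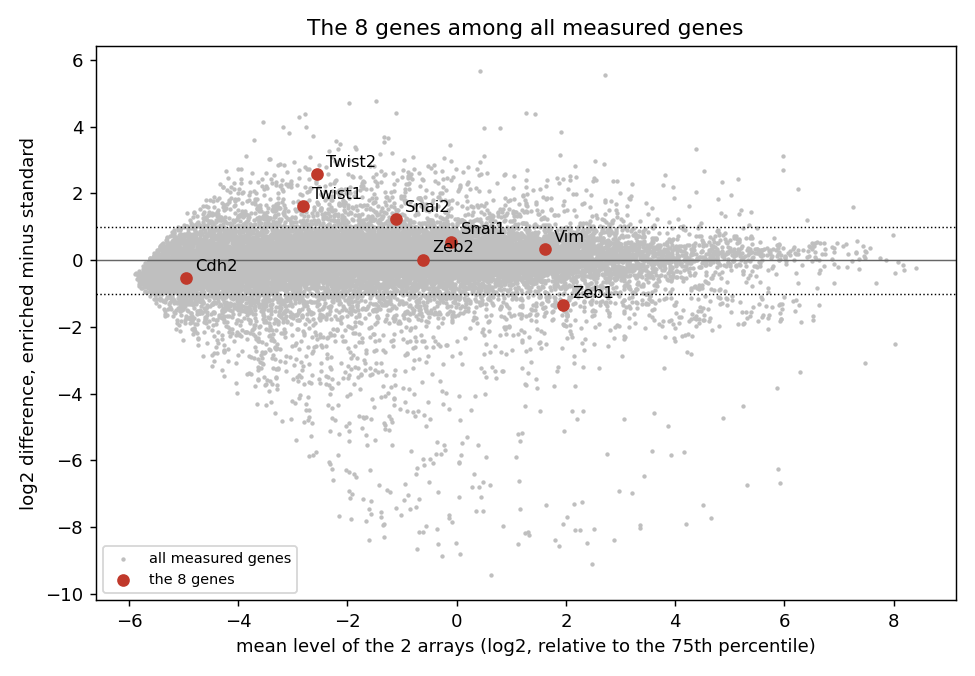
Log2 difference (enriched minus standard) against the mean level of the 2 arrays for the 20065 measured genes in grey and the 8 genes in red. Dotted lines mark 2-fold. Twist2, Twist1 and Snai2 lie above the upper line and Zeb1 below the lower one, while the grey points extend further below 0 than above it.

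Partners and other regulators of the transition were more often lower than higher in the enriched environment pool, many of them by little. Lower values were found for 13 of 17 measured genes, where 48.1% of all measured genes were lower. Of the 17, 1 was at least 2-fold higher and 3 were lower by 2-fold or more. The median was -0.24, close in size to the median spot error of 0.21. The list also holds the Id genes, whose proteins sequester partners of Twist, so the counts and median are no value for inducers alone. Snai3, a Snail family member known from mouse skeletal muscle and thymus, had levels of -4.72 in the enriched and -2.69 in the standard environment pool, a difference of -2.03. Tbx3, a T-box repressor, differed by -1.33. Sox4, a factor of progenitor cells and of TGF-beta responses, was the gene that was higher, at 1.27. Beside these values, all 12 skeletal muscle markers were at least 2-fold lower, their median being -7.91, and their part in the result for Snai3 was not tested.

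Twist proteins bind DNA as dimers with E proteins, and Id proteins sequester those E proteins. Among the E protein genes Tcf3 differed by 0.41, Tcf12 by -0.16 and Tcf4 by -0.74, and the 4 Id genes lay between -0.37 and 0.27. None of these 7 genes was 2-fold apart. In the wider Twist-related family 5 of 9 genes were measured. Hand2, a heart and limb factor, differed by 0.01 and Scx, the tendon factor scleraxis, by -0.20, whereas Tcf15, the somite factor paraxis, differed by -3.22. Msc, a repressor of myogenesis, was well above background in the enriched environment pool only and at least 2.15-fold brighter there.

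Genes that the factors are known to repress were mostly higher in the enriched environment pool. The factors themselves were split there. Twist2, Twist1 and Snai2 were at least 2-fold higher and Snai1 differed by 0.56, while Zeb1 differed by -1.34 and Zeb2 by 0.01. The epithelial junction and keratin genes had a median of 1.72 over 22 measured, with 20 higher (19 by 2-fold or more) and 2 lower, both by 2-fold or more. Of all measured genes, 5.75% were higher and 9.57% lower by 2-fold or more. Cdh1 had levels of 3.68 in the enriched and 1.31 in the standard environment pool, a difference of 2.37 or 5.18-fold. Lsr, a protein of tricellular junctions, differed by 2.27, Krt8 by 2.14, Crb3, a polarity protein, by 2.13. Epcam, an epithelial adhesion protein, differed by 2.07. The 2 lower genes were Rab25, an epithelial trafficking GTPase, at -1.32 and Ap1m2, an adaptor of basolateral sorting, at -1.22. The Ap1m2 level in the enriched environment pool, -5.65, lay near the lowest level well above background there.

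Regulators that keep cells epithelial were also mostly higher. Of 9 measured genes 5 were at least 2-fold higher, where 5.75% of all measured genes were, with a median of 1.11. Esrp1 and Esrp2, which direct epithelial splicing, differed by 2.08 and 1.63, Klf5 by 1.81, Elf3 by 1.42, and Ovol1, an epithelial zinc finger repressor, by 1.11. The Ovol1 value is also the median of the list. Its level in the standard environment pool, -5.01, was near the lowest level well above background there. Grhl2, a factor of epithelial junctions that opposes Zeb1, differed by -2.14, with levels of -3.88 in the enriched and -1.74 in the standard environment pool. With normexp the median of these genes was 0.56. All 10 pancreatic carcinoma epithelium markers were measured and at least 2-fold higher, among them Krt8, Krt18, Krt19, Epcam, Cdh1 and Muc1, which the junction and keratin list holds too. They took 1.14% of the summed signal in the enriched and 0.276% in the standard environment pool. The part of these markers in the epithelial differences was not tested.

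The E-boxes that Snail and Zeb proteins bind are often of the form CAGGTG, read as CACCTG on the other strand. These letters were searched on both strands in the 250 bases before each transcription start listed by RefSeq on GRCm38.p6, and 17.2% of 32851 promoters held at least 1 match and 2.06% held 2 or more. Of the 23 epithelial junction and keratin genes, 15 had a listed promoter and 12 of these held a match, where 19.4% of all genes with a listed promoter did. Cdh1 had no listed promoter and was not searched. With 15 of 23 genes covered, a check of the whole list is void. The list was also made of genes that these E-box binding factors are known to repress. A high share was therefore likely in advance, and it says nothing about the 2 pools. Among mesenchymal and matrix genes 1 of 13 with a listed promoter held a match, and among the 8 genes 1 of 5. The promoters shown are 5, that of Snai1, which is reported to repress its own gene, and those of 4 target genes picked after the matches were counted, with 3 genes that were higher and Ap1m2, which was lower. Capitals mark the matches, and each line runs 5′ to 3′ on the gene's strand and ends at the base before the start.
Snai1, chr2:167537945-167538194, plus strand: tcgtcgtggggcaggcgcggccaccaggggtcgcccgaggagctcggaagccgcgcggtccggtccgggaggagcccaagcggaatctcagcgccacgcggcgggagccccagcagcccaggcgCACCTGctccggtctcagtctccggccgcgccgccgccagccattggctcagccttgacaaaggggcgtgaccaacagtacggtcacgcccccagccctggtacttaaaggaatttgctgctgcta
Lsr, chr7:30973470-30973719, minus strand: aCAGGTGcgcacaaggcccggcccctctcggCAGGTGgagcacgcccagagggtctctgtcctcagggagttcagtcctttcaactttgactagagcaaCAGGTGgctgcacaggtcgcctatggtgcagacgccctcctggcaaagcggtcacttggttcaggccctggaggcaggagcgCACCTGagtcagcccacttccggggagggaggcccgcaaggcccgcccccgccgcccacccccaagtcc
Crb3, chr17:57061951-57062200, plus strand: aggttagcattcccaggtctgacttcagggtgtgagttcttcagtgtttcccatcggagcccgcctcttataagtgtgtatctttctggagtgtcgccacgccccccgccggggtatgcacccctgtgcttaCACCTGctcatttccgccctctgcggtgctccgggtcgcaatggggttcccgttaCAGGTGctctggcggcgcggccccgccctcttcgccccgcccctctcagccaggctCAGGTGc
Epcam, chr17:87635729-87635978, plus strand: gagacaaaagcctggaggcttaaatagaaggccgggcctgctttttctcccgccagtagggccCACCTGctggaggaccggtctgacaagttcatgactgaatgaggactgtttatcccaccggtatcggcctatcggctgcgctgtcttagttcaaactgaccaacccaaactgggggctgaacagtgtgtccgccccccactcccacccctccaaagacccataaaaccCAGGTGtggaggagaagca
Ap1m2, chr9:21312334-21312583, minus strand: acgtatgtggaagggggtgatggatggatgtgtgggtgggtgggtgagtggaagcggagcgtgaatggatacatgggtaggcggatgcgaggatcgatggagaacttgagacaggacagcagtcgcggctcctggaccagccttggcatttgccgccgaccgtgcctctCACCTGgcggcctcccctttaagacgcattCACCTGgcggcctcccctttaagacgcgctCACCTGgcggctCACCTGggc

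Snai1, at a difference of 0.56, held 1 match that begins 126 bases before the start. Lsr at 2.27 and Ap1m2 at -1.22 held 4 matches each. Crb3 at 2.13 held 3, which begin 118, 63 and 7 bases before the start, and Epcam at 2.07 held 2, at 187 and 19 bases. Rab25, the other lower target, held 2 matches, and Cldn3, Dsp and Marveld2, which were higher, held none. A match shows only that the letters are present, and no binding was measured.

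Mesenchymal and matrix genes, the other side of the programme, were mostly higher in the enriched environment pool. Of 22 measured genes 17 were higher (51.9% of all measured genes) and 10 at least 2-fold higher (5.75% of all). None was lower by 2-fold or more (9.57% of all), and the median was 0.85. The largest differences were in Mmp3, a stromelysin, at 3.98, in the matrix protein tenascin C, Tnc, at 3.55 and in the collagen gene Col3a1 at 2.96. Postn, encoding periostin, differed by 2.83, the collagen crosslinking enzyme Loxl2 by 2.65 and Col1a1 by 2.02. Fn1, encoding fibronectin, differed by -0.39, the receptor kinase Axl by -0.49 and Mmp9 by -0.71.

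**Figure D4:**
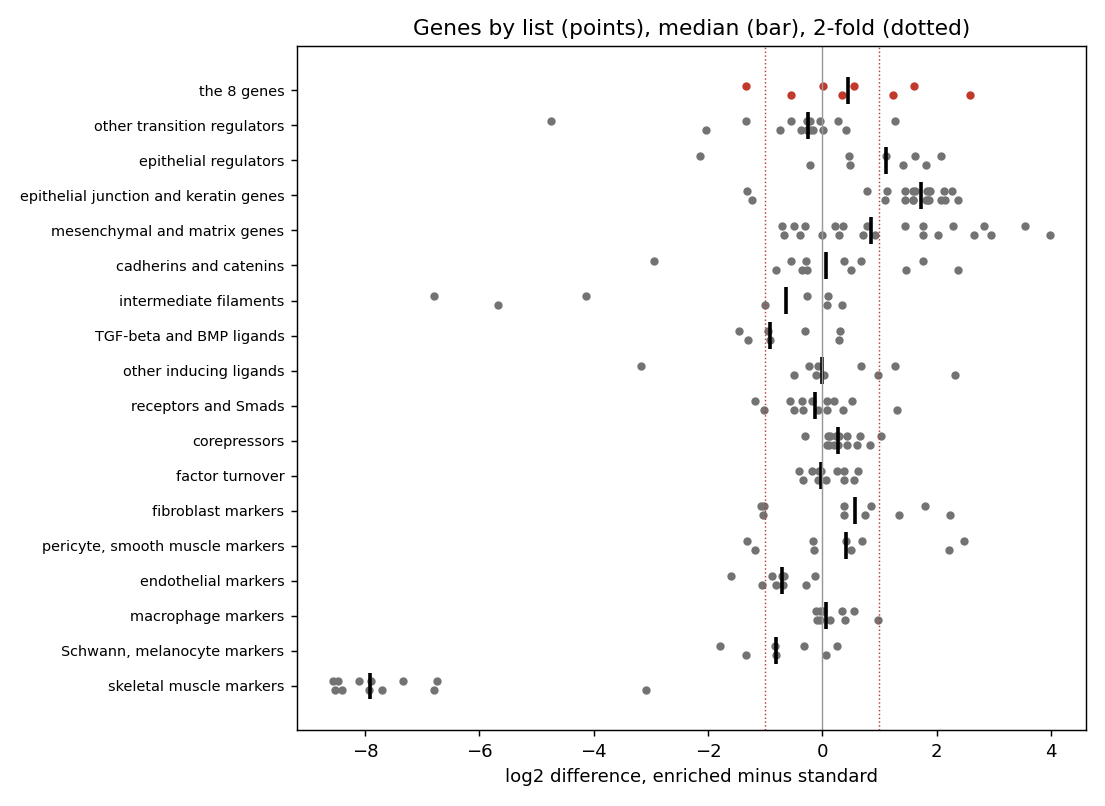
Log2 difference (enriched minus standard) of each measured gene in the lists on the vertical axis (points, the 8 genes in red) with the median of each list as a black bar. Dotted lines mark 2-fold. The epithelial junction and keratin genes lie mostly beyond the upper line, with a median of 1.72, and the skeletal muscle markers far below the lower one, with a median of -7.91.

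Several relatives of Cdh2 and Vim were further apart between the pools than Cdh2 and Vim themselves. Among 12 measured cadherins and catenins, Cdh1 at 2.37, Cdh11, a mesenchymal cadherin, at 1.76 and Cdh13 at 1.46 were at least 2-fold higher, and Cdh15, the cadherin of muscle satellite cells, was lower at -2.95. The 3 Cdh11 probes ranged from 0.42 to 2.56. The endothelial cadherin Cdh5 differed by -0.81 and the catenin genes Ctnna1 and Ctnnb1 by 0.68 and 0.38. Among 8 measured intermediate filament and linker genes, the muscle filament genes Des and Synm differed by -6.80 and -5.68, Sync by -4.14, and Nes, encoding nestin, was also at least 2-fold lower. The lamin gene Lmna differed by 0.08 and the linker Plec by 0.10, beside 0.34 for the mean of the 2 Vim probes and -0.04 for its reference mRNA probe. Des is itself one of the skeletal muscle markers. The part of the lower skeletal muscle markers in the values of Cdh15, Des, Synm and Sync was not tested.

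Ligands tied to the transition were mixed, and not all of them induce it. The 7 TGF-beta and BMP family ligands had a median of -0.92, with 2 lower by 2-fold or more and none higher by that much. This median covers inducing and opposing ligands together and is no value for the inducers alone. Bmp2 differed by -0.94 and Inhba by 0.30. Tgfb3 had levels of 2.98 in the enriched and 4.28 in the standard environment pool, a difference of -1.30, and Bmp7, which opposes the transition in kidney, differed by -1.45. Tgfb1 differed by 0.32 and Tgfb2 by -0.30. Among 10 other inducing ligands, the cytokine Il6 at 2.33 and the Notch ligand Jag1 at 1.28 were at least 2-fold higher and Egf was lower at -3.17. The Il6 level in the standard environment pool, -4.81, was near the lowest level well above background there. Of 14 receptors and Smads, only Met, the hepatocyte growth factor receptor, was at least 2-fold higher, at 1.30. Pdgfrb at -1.18 and Pdgfra at -1.02, receptors of pericytes and fibroblasts, were at least 2-fold lower, and the inhibitory Smad7 differed by 0.36.

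Cofactors through which the factors act differed little. Of 15 corepressor and chromatin genes 14 were higher, where 51.9% of all measured genes were. Their median was 0.27, beside 0.03 for all. Only Ajuba, a LIM protein that bridges Snail to its corepressors, reached 2-fold, at 1.03. Ezh2, the Polycomb methyltransferase, differed by 0.83, Suz12 by 0.66 and Ctbp1 by -0.30. None of 13 measured genes for turnover of the factor proteins reached 2-fold, and their median was -0.02. Gsk3b, the kinase that marks Snail for destruction, differed by -0.41, and the ubiquitin ligase subunits Fbxl14 and Fbxl5 by 0.56 and 0.63.

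Markers of other cell types differed between the pools too. Skeletal muscle markers took 0.0938% of the summed signal in the enriched and 3.65% in the standard environment pool. Fibroblast markers took 0.0778% in the enriched and 0.0693% in the standard environment pool, with 3 of 10 at least 2-fold higher, led by Mfap5 at 2.23 and Thy1 at 1.80, and 3 at least 2-fold lower, Pi16 at -1.07, Dcn at -1.03 and Pdgfra at -1.02. Pericyte and smooth muscle markers were split, with Cnn1 at 2.48 and Tagln at 2.21 against Rgs5 at -1.31 and Pdgfrb at -1.18. The 9 endothelial markers were all lower, by a median of -0.70, 2 of them at least 2-fold. They hold Cdh5, which is also among the cadherins above, and Pdgfra and Pdgfrb are also among the receptors above. The 10 macrophage markers had a median of 0.07 with none 2-fold apart, beside the 0.01 of Zeb2. Of 10 Schwann cell and melanocyte markers 7 were measured, with a median of -0.81, and of 9 keratinocyte markers 6, with a median of 0.79 that was 0.18 without the filter on dim probes. Krt14 at 3.15, Krt5 at 2.01 and Krt15 at 1.40 were at least 2-fold higher, Lor and Krt10 differed by 0.18 and 0.15, and Trp63, the basal cell factor p63, by -0.63. Dsg3 was well above background in the standard environment pool only and at least 2.09-fold brighter there. Keratinocyte markers took 0.0196% of the summed signal in the enriched and 0.00608% in the standard environment pool. All 5 measured erythroid markers were at least 2-fold lower. The part of each of these cell types in the differences of the 8 genes was not tested.

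**Figure D5:**
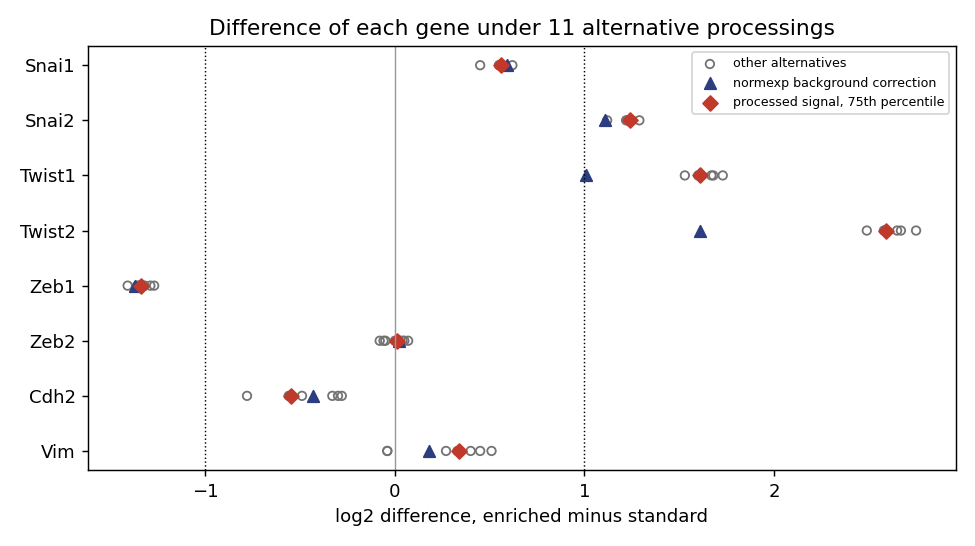
Log2 difference (enriched minus standard) of each of the 8 genes under the processing used in the text (red diamonds), under normexp background correction (blue triangles) and under 10 further alternatives (open circles). Dotted lines mark 2-fold. Normexp, with an offset of 50, gave 1.61 for Twist2 and 1.01 for Twist1, and Zeb1 stayed between -1.41 and -1.27.

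The direction of the 4 genes beyond 2-fold did not depend on the processing tried. Each of these 4 genes has 1 probe, of a RefSeq mRNA and well above background on both arrays. Dropping the filter on dim probes, keeping outlier spots, or taking the brightest or RefSeq mRNA probes could therefore not move them. Only the alternatives that change background or scaling could. Over 11 alternatives the difference lay between 1.61 and 2.75 for Twist2, between 1.01 and 1.73 for Twist1, between 1.11 and 1.29 for Snai2 and between -1.41 and -1.27 for Zeb1. Snai1 stayed between 0.45 and 0.62 and Zeb2 between -0.08 and 0.07. Vim lay between -0.04 and 0.51, with the lowest value from its reference mRNA probe alone, and Cdh2 between -0.78 and -0.28.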

How the data were processed

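Per the labels' protocols, Cy3-labelled cRNA of each pool was run on an Agilent mouse whole genome array. The deposited scanner files hold an intensity per spot. The submitters' processing notes name Agilent Feature Extraction 10.7.1.1 as the software. The file headers name spatial detrending and surrogate values for dim spots, which change dim probes most, and place both arrays on 1 slide. A second deposited table holds a log2 value per probe, with column medians of 8.56 (enriched) and 8.54 (standard). It correlated with log2 of the scanner intensity across probes (r = 1.00 for both arrays), and the authors' scaling and centring of it are unstated.

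Processed intensities were divided by the 75th percentile of each array, 984 in the enriched and 753 in the standard environment pool, and log2-transformed. The 1639 control spots and spots marked as outliers (70 in the enriched and 66 in the standard environment pool) were left out, 77.4% and 77.2% of the other spots were well above background, and none was saturated. Probes well above background on both arrays were kept (30298 of 41161) and averaged per gene. A RefSeq accession gave the symbol of 22951 probes, a current symbol 6659, a unique synonym 3109, and 8455 kept the file's name. A gene above background on 1 array only is given as a bound. Positions on mm7 were copied from the scanner files, and exons and UTRs were not annotated here. Promoters are from RefSeq. No p-value was computed with 1 array per group, and the steps were tested on simulated data. The 8 genes and the 21 lists were chosen with earlier results of these data known. All 8 genes are named; in each list the highest and lowest differences, those at least 2-fold apart and a few core genes could be named. Tcf12, Fn1, Ctnna1, Ctnnb1, Cldn3, Dsp, Marveld2, Prrx1 and Acta2 were named after their values were seen. Some listed genes are not reported here by name. Alternatives used limma 3.58.1 in R 4.3.3, and Python 3.11.15 for the rest.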

Additional observations from a re-analysis of the deposited data

How the results depend on the processing

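For 32 results the values were recomputed under 11 other processings. The one that kept only probes with a RefSeq mRNA accession was chosen after seeing the data. A move of less than 0.21, the median spot error of a difference, was taken as no move. No value beyond 2-fold changed its sign, and under all 11 the counts beyond 2-fold stayed at 3 of the 8 genes upwards and 1 downwards. The settings on dim, outlier, brightest and RefSeq mRNA probes could not move those genes, since each has a single probe. Normexp with its offset of 50 moved the medians of epithelial regulators to 0.56, junction and keratin genes to 1.44 and TGF-beta and BMP ligands to -0.57. It moved those of muscle, keratinocyte and erythroid markers to -7.48, 0.51 and -4.81. The epithelial regulators moved to 1.34 with quantile scaling, 1.39 in the deposited table and 0.85 without a filter on dim probes. The deposited table gave -7.65 for muscle. Without the filter, cadherins and catenins had -0.32, intermediate filaments -0.88, keratinocyte markers 0.18 and Schwann cell and melanocyte markers -0.46. The brightest probe per gene gave 0.63 for mesenchymal genes and -0.17 for cadherins and catenins, and RefSeq probes alone gave -0.56 for Schwann cell and melanocyte markers. The cause was not tested. The median of all genes lay between -0.11 and 0.11, the lowest without the filter. Dim signal limits Cdh2. No paired analysis was possible because each group is 1 pooled array.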

Other observations

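Several genes around the 8 had probes that disagreed by more than 1 on the log2 scale. Prrx1, a mesenchymal homeobox gene with splice forms, had 6 measured probes with differences from -1.32 to 0.51 (SD between probes 0.59). The 3 probes of Itgb1, the beta1 integrin gene, ran from -2.16 to 0.37, and the 4 probes of Acta2, encoding smooth muscle actin, from -2.09 to 1.02. The mean of Acta2 was -0.15, while the 2 probes of Tagln, another smooth muscle gene, gave 2.20 and 2.21. Prrx1 and Acta2 were picked for this after their values were seen.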
